A study of Mus musculus with 19 samples.

Results

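The members were the genes of the Toll-like receptors Tlr1 to Tlr9 and of their co-receptor Cd14, 10 genes chosen by name and not by any measured value. Of these, 9 of 10 were measured, out of 19938 genes on the array. Tlr5, the flagellin receptor, had no probeset paired with a single gene and was not analysed here. Each of the 9 others had 1 probeset, so no choice among probesets bore on them. They were measured in Kupffer cells (KCs), the resident macrophages of the liver sinusoids, on 19 Affymetrix GeneChip Mouse Gene ST arrays with 1 array per sample.

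The study asked whether KCs that arise from monocytes (mo-KCs) resemble the KCs of embryonic origin (em-KCs) that they replace. In KC-DTR mice the 3′ end of the Clec4f gene carries a cassette with YFP and the human diphtheria toxin receptor, so that Clec4f, a lectin gene of KCs, drives the receptor and a single intraperitoneal dose of 50 ng diphtheria toxin (DT) removes the em-KCs. Mo-KCs were sorted from such mice 30 days after DT (5 arrays) or 15 days after DT (3 arrays). Em-KCs were on 11 arrays, from wild-type (WT) mice (3 arrays), untreated KC-DTR mice (3), WT littermates 15 days (2) or 30 days (2) after DT, and 1 untreated WT littermate. The mice were C57Bl/6, of both sexes and stated to be used at 6 to 12 weeks of age, and the sort kept live CD45+ cells with F4/80 and Clec4F, intermediate CD11b and no Ly6C, Ly6G or SiglecF. Since the cells of every group were sorted on Clec4F protein, monocyte-derived cells that had not yet gained it were not on the arrays. By their labels, replicate arrays are biological replicates.

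Toll-like receptors bind conserved molecules of microbes and signal through adaptor proteins to NF-kB and interferon regulatory factors. TLR4 (with MD-2 and CD14), TLR2 (as a dimer with TLR1 or TLR6) and TLR5 sit at the cell surface, whereas TLR3, TLR7, TLR8 and TLR9 sense nucleic acids in endosomes, which they reach with the chaperone UNC93B1. KCs meet bacterial products arriving in portal blood, and endotoxin sensing through CD14 and TLR4 is among their best known functions.

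The samples carried the genes of KCs, and 2 sets of arrays stood apart. The mean of the 12 KC identity genes lay between 11.08 and 11.36 (log2) in day 30 mo-KCs, between 11.08 and 11.25 in day 15 mo-KCs and between 11.58 and 11.77 in em-KCs. By limma 4 of the 12 were called lower than in em-KCs at day 30 and 8 were not called. At day 15 these counts were 2 and 10. The median difference was -0.20 at day 30 and -0.16 at day 15, so the mean does not stand for the whole list. Timd4, the gene of the phosphatidylserine receptor Tim4, was lower than in em-KCs by limma at both times, by -2.28 (log2, adjusted p = 2.16e-13) at day 30 and -3.75 (adjusted p = 3.98e-16) at day 15. Clec4f, which carries the cassette in KC-DTR mice, was lower at day 30 (-1.26, adjusted p = 1.56e-04) and differed by -0.32 at day 15. Its day 15 values were 12.16 to 12.21, close to the 12.17 to 12.39 of untreated KC-DTR em-KCs, which share the genotype. Littermate em-KCs had 12.57 to 12.67. Ccr2, the chemokine receptor gene of monocytes, was higher at day 15 (2.90, adjusted p = 2.38e-08). Y-linked genes averaged 3.97 to 4.18 in 6 arrays (day 30 mo-KC replicates 3 to 5 and all 3 WT em-KC arrays) and 7.33 to 7.83 in the other 13, called the low-Y and high-Y arrays below. The low-Y arrays also had fewer transcripts of immediate-early genes, which cells induce within minutes of stress (mean of 19 genes 7.82 to 8.28 against 9.09 to 9.90), and, in part, more hepatocyte transcripts (mean of 9 genes 8.53 to 10.40 against 7.78 to 9.15). Xist, the X-inactivation transcript of female cells, ran the other way, at 8.72 to 9.51 in the low-Y arrays and 4.07 to 4.53 in the high-Y arrays. This is the pattern of female mice in the low-Y set and male mice in the high-Y set. The sources used here name neither the sex nor the array batch of single samples. Sex, any batch and the other properties coincide in the low-Y set and cannot be told apart, and member results that rest on it are given with and without it.

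At day 30, none of the 9 measured receptor genes was called different between mo-KCs and em-KCs over all arrays. No member passed the test (0 of 9, limma, threshold 0.05 on p-values adjusted by Benjamini-Hochberg across all genes tested), where 0.787% of all genes did (59 higher, 98 lower). The differences ran from -0.20 to 0.16 on the log2 scale with a median of -0.04, against a median of -0.02 over all genes. None of the 9 had an unadjusted p under 0.05, which 13% of all genes had, and the methods' t-test called none. For all 9 the 95% confidence interval of the difference lay within 1.5-fold in either direction, as it did for 91.1% of all genes, so that a larger difference in the mean over all arrays was outside the interval for each. For Tlr9 this mean joined 0.41 (0.19 to 0.63) in the high-Y arrays and -0.56 (-0.98 to -0.14) in the low-Y arrays, and for Tlr1 it joined 0.07 (-0.25 to 0.40) and 0.48 (0.06 to 0.91). The interval of Tlr9 in both sets and that of Tlr1 in the low-Y arrays reached past 1.5-fold. In bulk samples such as these, fewer expressing cells and less RNA per cell cannot be told apart.

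At day 15 the 9 differences from em-KCs ran from -0.21 to 0.54 with a median of 0.21, against -0.01 over all genes, and 8 of the 9 were above 0. None passed the test (0 of 9, against 0.502% of all genes). Tlr9 and Tlr1 had an unadjusted p under 0.05 (2 of 9, against 6.05% of all genes), and the methods' t-test called Tlr9 alone before adjustment and none after it. The interval lay within 1.5-fold for 7 of the 9 members and for 87.8% of all genes. For mo-KCs of both days against em-KCs 0 of 9 members passed, where 1.19% of all genes did. Tlr1 alone of the members had an unadjusted p under 0.05 there, as 10.6% of all genes had. For day 30 against day 15 mo-KCs 0 of 9 passed, against 0.0201% of all genes. Tlr9 and Cd14 were under 0.05 before adjustment there, as 5.08% of all genes were.

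**Figure D1:**
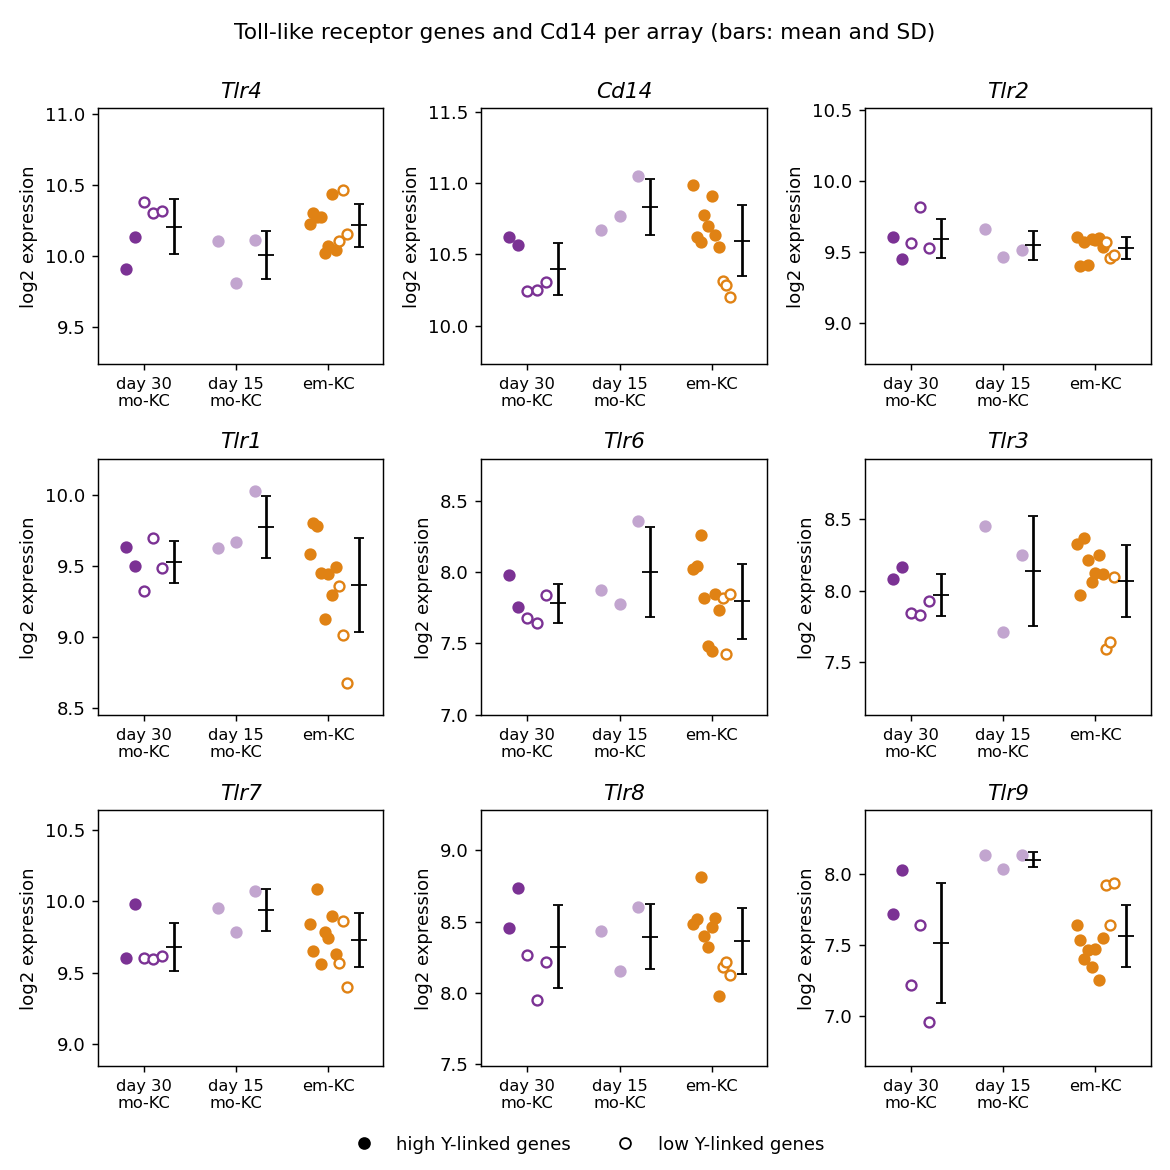
Log2 expression of the 9 measured genes (vertical axes, all of the same span) on 19 arrays, 1 point per array, in day 30 mo-KCs, day 15 mo-KCs and em-KCs, with the mean and SD beside the points. Filled points are the 13 high-Y arrays and open points the 6 low-Y arrays. In the Cd14 panel all 6 open points lie below all 13 filled ones, and in the Tlr9 panel the 3 day 15 points lie above all 11 em-KC points.

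Tlr4 encodes the receptor of lipopolysaccharide. Its log2 values were 9.91, 10.13, 10.38, 10.30 and 10.32 in day 30 mo-KCs and 10.10, 9.81 and 10.11 in day 15 mo-KCs, and in em-KCs they ran from 10.02 through a median of 10.23 to 10.46. The groups overlapped, and the lowest array of all was a day 15 replicate. The difference from em-KCs was -0.01 at day 30 (standard error 0.09, 95% interval -0.20 to 0.18, adjusted p = 0.982, limma) and -0.21 at day 15 (0.11, -0.44 to 0.02, adjusted p = 0.868). Ly96 encodes MD-2, which binds lipopolysaccharide on TLR4. It differed from em-KCs by 0.25 at day 30 (interval -0.01 to 0.50, adjusted p = 0.399) and by 0.01 at day 15 (-0.29 to 0.32, adjusted p = 0.996). Its day 30 values were 9.13 and 9.34 in the high-Y replicates 1 and 2 and 9.72, 9.97 and 9.85 in the low-Y replicates 3 to 5. Replicates 3 to 5 lay above the 3 low-Y em-KC arrays (8.90 to 9.55), as 11.7% of all genes did.

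Cd14 encodes the protein that passes lipopolysaccharide to TLR4 and MD-2. Its values were 10.62, 10.57, 10.24, 10.25 and 10.31 in day 30 mo-KCs and 10.68, 10.77 and 11.05 in day 15 mo-KCs, and in em-KCs they ran from 10.20 through 10.62 to 10.99. All 5 day 30 arrays lay below all 3 day 15 arrays, which held for 1.55% of all genes (3.20% did not overlap in either direction), while both days overlapped with em-KCs. The difference from em-KCs was -0.20 at day 30 (interval -0.45 to 0.05, adjusted p = 0.501, limma) and 0.23 at day 15 (-0.06 to 0.53, adjusted p = 0.915), and between the days it was -0.43 (standard error 0.16, interval -0.77 to -0.10, adjusted p = 0.920).

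The spread of Cd14 followed the array sets. In the 6 low-Y arrays it was 10.27 ± 0.04 (SD, n = 6) and in the 13 high-Y arrays 10.73 ± 0.16 (SD, n = 13). All 6 lay below all 13, which held for 2.48% of all genes. Within the high-Y arrays the day 30 difference from em-KCs was -0.13 (interval -0.38 to 0.13, adjusted p = 0.932, limma), within the low-Y arrays it was 0.00 (-0.26 to 0.26, adjusted p = 0.995), and the day 30 to day 15 difference within the high-Y arrays was -0.24 (-0.53 to 0.06). The 6 arrays low in Cd14 were also the 6 arrays lowest in the mean of the immediate-early genes, whose part in the Cd14 values was not tested.

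TLR2 recognises bacterial lipoproteins as a dimer, with TLR1 for triacylated and with TLR6 for diacylated forms. Tlr2 was the steadiest member. Its values were 9.60, 9.45, 9.57, 9.82 and 9.53 in day 30 mo-KCs and 9.66, 9.47 and 9.51 in day 15 mo-KCs, and ran from 9.40 through 9.57 to 9.61 in em-KCs. The SD over all 19 arrays was 0.10, against 0.17 to 0.33 for the other members. The difference from em-KCs was 0.07 at day 30 (interval -0.07 to 0.20) and 0.02 at day 15 (-0.15 to 0.19), neither called by limma (adjusted p = 0.739 and 0.988).

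Tlr1 had 9.64, 9.50, 9.32, 9.70 and 9.49 in day 30 mo-KCs, 9.63, 9.67 and 10.03 in day 15 mo-KCs, and 8.68 through 9.45 to 9.80 in em-KCs. The 3 day 15 arrays were above the em-KC median but overlapped with the highest em-KC arrays, and the 2 lowest em-KC arrays were WT. The day 15 difference from em-KCs was 0.41 (standard error 0.17, interval 0.05 to 0.76, adjusted p = 0.691, limma), and the day 30 difference was 0.16 (-0.13 to 0.46, adjusted p = 0.681). At day 30 it was 0.48 (0.06 to 0.91, adjusted p = 0.185) within the low-Y arrays, 0.07 (adjusted p = 0.978) within the high-Y arrays and 0.27 (0.01 to 0.54, adjusted p = 0.238) with the array set as a term, and within the high-Y arrays the day 15 difference was 0.28. Set against the 3 untreated KC-DTR em-KC arrays alone, which share the genotype of the mo-KCs, the Tlr1 difference was -0.19 at day 30 (-0.49 to 0.11) and 0.05 at day 15 (-0.28 to 0.39).

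Tlr6 had 7.98, 7.76, 7.68, 7.64 and 7.84 in day 30 mo-KCs, 7.87, 7.77 and 8.36 in day 15 mo-KCs, and 7.43 through 7.82 to 8.26 in em-KCs. The groups overlapped, with differences from em-KCs of -0.02 at day 30 (interval -0.28 to 0.25) and 0.21 at day 15 (-0.11 to 0.52). Tlr1 and Tlr6 are neighbouring genes on mouse chromosome 5 and near copies in sequence, and since the probe sequences were not used here, probes shared by both are possible. Their values correlated across the 13 high-Y arrays (Pearson r = 0.83) but not across the 6 low-Y arrays (r = 0.00), and over all 19 the r was 0.61. These are descriptions over arrays that share groups and normalization.

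The stretches upstream of Tlr1 and Tlr6 are shown because the pair varied together in the high-Y arrays. They come from RefSeq (build GRCm38.p6) and hold the 250 bases before an annotated start, read 5′ to 3′ on the minus strand at chr5:64933559-64933808 and chr5:64959167-64959416. Capitals mark matches, on either strand, to AGGAAGT, the core bound by the macrophage factor PU.1 and other ETS factors, or to the interferon-stimulated response element (ISRE), searched as GAAA, any 2 bases and GAAA.
Tlr1: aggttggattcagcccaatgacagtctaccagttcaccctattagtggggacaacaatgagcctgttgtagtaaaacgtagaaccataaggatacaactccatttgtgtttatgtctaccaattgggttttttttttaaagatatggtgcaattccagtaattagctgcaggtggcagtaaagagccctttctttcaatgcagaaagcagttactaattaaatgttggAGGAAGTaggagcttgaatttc
Tlr6: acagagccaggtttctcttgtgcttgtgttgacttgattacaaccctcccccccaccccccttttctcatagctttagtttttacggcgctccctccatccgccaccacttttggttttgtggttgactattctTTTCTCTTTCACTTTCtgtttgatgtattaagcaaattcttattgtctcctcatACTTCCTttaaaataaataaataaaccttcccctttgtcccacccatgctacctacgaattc
Each stretch held 1 match to AGGAAGT, with its first base 22 bases before the start in Tlr1 and 62 bases before it in Tlr6, where it lay on the opposite strand. Of 32851 stretches of this length before annotated starts, 7.69% held such a match. Tlr6 also held 2 overlapping matches to the ISRE, present in 2.98% of all stretches. A second annotated start of each gene had no match to either, nor did the stretches of Tlr2, Tlr3 and Tlr8. A match is a description of letters and not of a bound site.

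**Figure D2:**
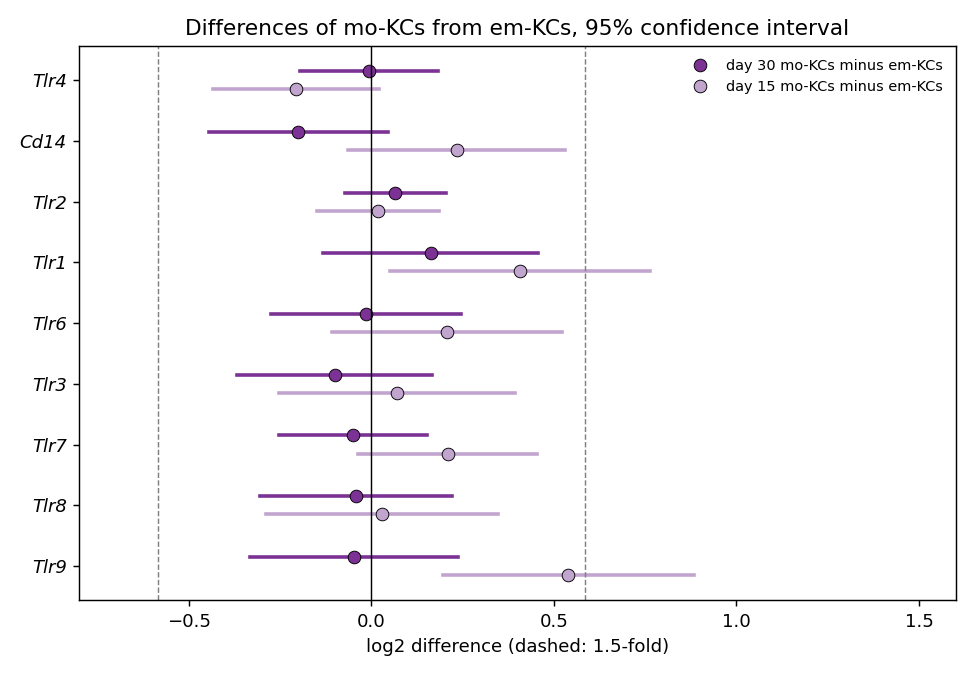
Log2 difference of day 30 mo-KCs (dark) and day 15 mo-KCs (light) from em-KCs for the 9 measured genes, with 95% confidence intervals from limma (horizontal axis), and dashed lines at 1.5-fold. All 9 day 30 intervals cross 0 and stay within the dashed lines, and at day 15 the intervals of Tlr1 and Tlr9 lie above 0 and reach past the upper dashed line.

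Among the endosomal receptors, Tlr3, the receptor of double-stranded RNA, had 8.08, 8.17, 7.84, 7.83 and 7.93 in day 30 mo-KCs, 8.46, 7.71 and 8.25 in day 15 mo-KCs, and 7.59 through 8.12 to 8.37 in em-KCs. Day 15 replicate 2 lay below the other 2 day 15 arrays and below all 5 day 30 arrays, and the 2 lowest em-KC arrays were WT. The differences from em-KCs were -0.10 at day 30 (interval -0.37 to 0.17, adjusted p = 0.802) and 0.07 at day 15 (-0.25 to 0.39, adjusted p = 0.980).

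TLR7 and TLR8 sense single-stranded RNA and their genes are neighbours on the X chromosome. Tlr7 had 9.60, 9.98, 9.60, 9.60 and 9.61 in day 30 mo-KCs, 9.95, 9.79 and 10.08 in day 15 mo-KCs, and 9.40 through 9.74 to 10.08 in em-KCs. Day 30 replicate 2 stood apart from the other 4, which were almost level, and the groups overlapped. The differences from em-KCs were -0.05 at day 30 (interval -0.25 to 0.15, adjusted p = 0.876, limma) and 0.21 at day 15 (-0.04 to 0.45, adjusted p = 0.888).

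Tlr8 had 8.46, 8.73, 8.26, 7.95 and 8.22 in day 30 mo-KCs, 8.44, 8.15 and 8.60 in day 15 mo-KCs, and 7.98 through 8.40 to 8.82 in em-KCs. The groups overlapped, and the differences were -0.04 at day 30 (interval -0.31 to 0.22) and 0.03 at day 15 (-0.29 to 0.35). Tlr7 and Tlr8 had r = 0.62 across the high-Y arrays and 0.28 across the low-Y arrays.

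Tlr9 encodes the receptor of unmethylated CpG DNA and varied most among the members (SD 0.33 over 19 arrays). It had 7.72, 8.02, 7.22, 7.64 and 6.96 in day 30 mo-KCs, 8.13, 8.04 and 8.13 in day 15 mo-KCs, and 7.26 through 7.54 to 7.94 in em-KCs. All 3 day 15 arrays lay above all 11 em-KC arrays and above all 5 day 30 arrays. Of all genes, 0.752% were above em-KCs in this way and 1.81% did not overlap in either direction. The day 30 arrays spanned more than the whole em-KC range, with replicate 2 above it and replicates 3 and 5 below it. The mean of the 10 of 12 listed monocyte genes that were measured also stood highest in the day 15 arrays, at 7.68 to 7.90, against 6.96 to 7.45 in em-KCs. By limma 2 of the 10 were called higher at day 15 and 8 were not called. Their differences ran from -0.545 to 2.901 with a median of 0.101, so the mean does not stand for the whole list. The mean of 7 genes of plasmacytoid dendritic cells, which carry TLR9, was 6.39 to 6.45 at day 15 and 6.45 to 6.88 in em-KCs, and that of 6 genes of B cells was 6.27 to 6.78 at day 15 and 6.31 to 7.23 in em-KCs. The part of these cells in the Tlr9 values was not tested.

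The Tlr9 difference from em-KCs was 0.54 at day 15 (1.45-fold, standard error 0.17, interval 0.20 to 0.88, adjusted p = 0.271, limma), which did not pass the test, and -0.05 at day 30 (-0.33 to 0.24, adjusted p = 0.918). With arrays weighted by their quality the day 15 difference was called (0.61, adjusted p = 0.012), and over the 33 alternatives with an adjusted p it lay between 0.50 and 0.69 and was called in 2, the other being the high-Y arrays alone. Between day 30 and day 15 mo-KCs it was -0.59 (interval -0.97 to -0.20, adjusted p = 0.920), and within the high-Y arrays, which hold 2 of the 5 day 30 arrays, it was -0.23 (-0.48 to 0.03, adjusted p = 0.999). Against untreated KC-DTR em-KCs, in the fit of all 7 conditions, the day 15 difference was 0.57 (standard error 0.20, adjusted p = 0.562). No member passed there at day 15 (0 of 9, 0.391% of all genes) or at day 30 (0 of 9, 0.366% of all genes). Before adjustment Tlr9 alone was under 0.05 at day 15, as 5.12% of all genes were. At day 30 Tlr6 and Cd14 were under 0.05 before adjustment, as 9.25% of all genes were. At day 30 Cd14 was -0.33 and Tlr6 -0.33 over all arrays, and within the high-Y arrays Cd14 was -0.14 (-0.45 to 0.18) and Tlr6 -0.24 (-0.58 to 0.10).

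Within the 13 high-Y arrays Tlr9 was called higher in mo-KCs. It was 7.72 and 8.02 on the 2 day 30 arrays and 8.04 to 8.13 on the 3 day 15 arrays, against 7.26 to 7.64 on the 8 em-KC arrays. All 5 mo-KC arrays lay above all 8 em-KC arrays. Of all genes, 0.537% had the 5 mo-KC arrays above the 8 em-KC arrays. The day 15 difference was 0.64 (standard error 0.09, interval 0.45 to 0.83, adjusted p = 9.76e-04, limma, 1.16% of all genes called), that of both days 0.53 (0.08, 0.37 to 0.69, adjusted p = 0.00118, 1.3% called) and that of day 30, with 2 arrays, 0.41 (0.10, 0.19 to 0.63, adjusted p = 0.166, 0.326% called). Against the 3 untreated KC-DTR em-KC arrays the day 15 difference was 0.57 (adjusted p = 0.0426, 0.612% called, a comparison added after seeing the data). Tlr9 was the 1 member called in each of those 3 comparisons.

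Within the 6 low-Y arrays Tlr9 ran the other way, with 7.22, 7.64 and 6.96 in day 30 mo-KCs against 7.92, 7.64 and 7.94 in WT em-KCs. The difference was -0.56 (standard error 0.19, interval -0.98 to -0.14, adjusted p = 0.129, limma), and no member was called there (0 of 9, against 4.15% of all genes). The day 30 difference of Tlr9 thus differed between the sets by -0.97 (low-Y minus high-Y, standard error 0.20, interval -1.39 to -0.56, adjusted p = 0.00694, limma interaction, chosen after seeing the data). It was the 1 member of 9 called in this test, which called 4.72% of all genes. With the array set as a term in the fit of all arrays the day 15 difference was 0.55 (adjusted p = 0.238).

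The stretch upstream of Tlr9 is shown because this gene varied most. It is the 250 bases before the annotated start from RefSeq (build GRCm38.p6), on the plus strand at chr9:106222348-106222597, with capitals for the 1 match to TGANTCA, the AP-1 element bound by Fos and Jun proteins.
Tlr9: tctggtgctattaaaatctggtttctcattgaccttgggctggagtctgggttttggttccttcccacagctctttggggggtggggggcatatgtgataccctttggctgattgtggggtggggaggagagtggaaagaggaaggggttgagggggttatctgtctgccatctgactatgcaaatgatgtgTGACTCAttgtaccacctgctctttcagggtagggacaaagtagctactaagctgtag
The match begins 58 bases before the start, and 6.75% of all stretches of this length held one on either strand. No stretch of the other 6 members searched (Tlr1, Tlr2, Tlr3, Tlr5, Tlr6 and Tlr8) held it. Tlr9 held no match to AGGAAGT or to the ISRE.

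The genes closest to Tlr9 in pattern over the 19 arrays, chosen after its values were seen, were Icosl (Pearson r = 0.82), the ligand gene of the T cell costimulator ICOS, Mov10 (0.79), an RNA helicase gene, and Anpep (0.79), which encodes aminopeptidase N. For these genes r was 0.90, 0.86 and 0.78 in the 13 high-Y arrays and 0.91, 0.76 and 0.79 in the 6 low-Y arrays. The genes were picked on the same 19 arrays, so these values are not a separate test. Tlr12, whose product recognises profilin of apicomplexan parasites in mice, had r = 0.68 with Tlr9 over 19 arrays, 0.83 in the high-Y and 0.45 in the low-Y arrays.

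Tlr12 is not among the listed members. It had 8.91, 9.18, 8.31, 8.87 and 8.04 in day 30 mo-KCs, 8.96, 8.72 and 9.12 in day 15 mo-KCs, and 8.30 through 8.42 to 8.69 in em-KCs. The day 15 arrays lay above every em-KC array, as 0.752% of all genes did. Day 30 replicates 1, 2 and 4 also lay above every em-KC array, while replicate 3 lay within the em-KC range and replicate 5 below it. The difference was 0.19 at day 30 (interval -0.09 to 0.47, adjusted p = 0.597) and 0.46 at day 15 (0.12 to 0.80, adjusted p = 0.447). Within the high-Y arrays mo-KCs of both days exceeded em-KCs by 0.47 (standard error 0.09, adjusted p = 0.00766, limma, 1.3% of all genes called). Tlr13, the mouse receptor of bacterial ribosomal RNA, differed from em-KCs by -0.12 at day 30 (-0.31 to 0.08) and 0.16 at day 15 (-0.08 to 0.40). Tlr11 had no probeset of a single gene.

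**Figure D3:**
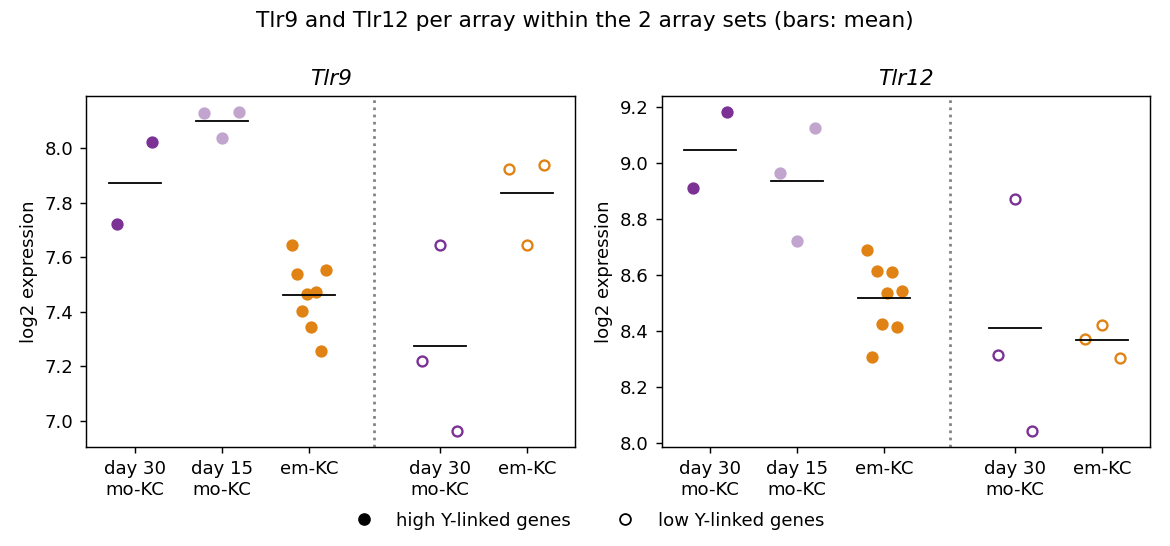
Log2 expression of Tlr9 and Tlr12 (vertical axes) per array, with the 13 high-Y arrays left of the dotted line (filled points) and the 6 low-Y arrays right of it (open points), and horizontal bars at the mean of each group. Left of the line the 5 mo-KC points of each gene lie above the 8 em-KC points. Right of it the Tlr9 mean is 7.28 in day 30 mo-KCs and 7.84 in em-KCs, and the Tlr12 mean 8.41 in day 30 mo-KCs and 8.37 in em-KCs.

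No partner of the receptors passed the test in these comparisons either. Of 81 genes in the pathway lists, which leave out the members themselves, 74 were measured. By limma 0 of 74 were called at day 30 (0.787% of all genes) or at day 15 (0.502%). Their median difference was -0.06 at day 30 and 0.05 at day 15, against -0.02 and -0.01 for all genes. The interval lay within 1.5-fold for 65 of 74 at day 30 and 61 of 74 at day 15.

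Unc93b1, the chaperone gene of the endosomal receptors, had 11.33, 11.34, 10.95, 11.04 and 10.89 in day 30 mo-KCs, 11.29, 11.33 and 11.21 in day 15 mo-KCs, and a mean of 11.36 in em-KCs. Its difference was -0.25 at day 30 (standard error 0.08, interval -0.42 to -0.07, adjusted p = 0.193, limma) and -0.08 at day 15. Within the low-Y arrays it was called lower in day 30 mo-KCs (-0.54, adjusted p = 0.0474, limma), where 4.15% of all genes were called. Its 3 day 30 arrays lay below the 3 em-KC arrays there, as 15.7% of all genes did. Within the high-Y arrays the difference was 0.03 (-0.14 to 0.20).

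Myd88, the adaptor of the receptors named here except TLR3, differed from em-KCs by 0.24 at day 30 (interval 0.01 to 0.47, adjusted p = 0.353) and 0.21 at day 15 (-0.07 to 0.48). Tirap, the adaptor that bridges TLR2 and TLR4 to MyD88, differed by -0.35 at day 30 (-0.67 to -0.03, adjusted p = 0.335) and by 0.00 at day 15. By list, the day 30 medians ran from -0.15 for the 5 endosomal proteases that cleave these receptors to 0.04 for Tlr12 and Tlr13, and the day 15 medians from -0.04 for the proteases to 0.31 for Tlr12 and Tlr13.

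**Figure D4:**
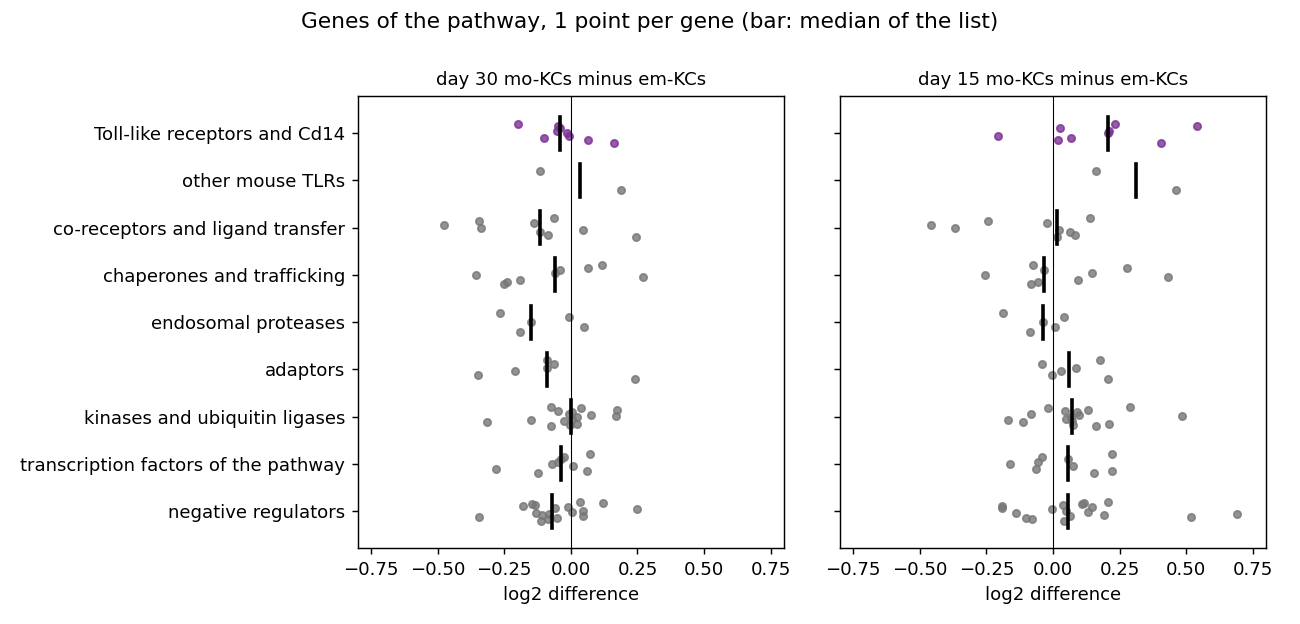
Log2 differences of day 30 mo-KCs (left) and day 15 mo-KCs (right) from em-KCs for the 9 members and the 74 measured genes of the pathway lists. Each gene is 1 point and each list 1 row, with a bar at the median of the list. The points of the 9 members (top row) lie between -0.20 and 0.16 at day 30 and between -0.21 and 0.54 at day 15, and no gene shown was called.

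Calls were also made among the em-KCs themselves, for members and for genes at large. In WT against KC-DTR colony em-KCs, 2 of 9 members were called by limma, both lower (9.64% of all genes were called lower and 16.5% in either direction). Calls of 2 among 9 genes are too few to set apart from these shares, and nothing particular to the members is read from them. Cd14 had 10.31, 10.29 and 10.20 in WT em-KCs and 10.55 to 10.99 in the 8 colony em-KC arrays, a difference of -0.46 (1.38-fold, standard error 0.12, adjusted p = 0.0128), and all 3 WT arrays lay below all 8 (9.28% of all genes did). Tlr1 had 9.36, 9.02 and 8.68 in WT em-KCs and 9.13 to 9.80 in the colony, a difference of -0.45 (1.36-fold, standard error 0.14, adjusted p = 0.0318), with 1 WT array inside the colony range. After cyclic loess between arrays neither call held (Cd14 -0.32, adjusted p = 0.0566, Tlr1 -0.27, adjusted p = 0.203), nor without WT replicate 3 (Cd14 -0.43, adjusted p = 0.0556, Tlr1 -0.28, adjusted p = 0.214).

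Tlr3 was -0.40 in the same comparison (adjusted p = 0.0744) and Tlr9 was 0.38 (adjusted p = 0.125), neither called, and the other 5 members lay between -0.24 and 0.03. The median of the 9 was -0.13, against 0.04 for all genes. Among the 74 pathway genes 12 were called, a share close to the 16.5% of all genes, so that nothing particular to the pathway is read from it. Of these 4 were higher and 8 lower, with Myd88 (-0.39, adjusted p = 0.0345) and Tnfaip3 (-1.04, adjusted p = 0.0171), the gene of the NF-kB inhibitor A20, among those lower. Slc15a4 (0.69, adjusted p = 0.0266), an endolysosomal transporter gene, and Irf5 (0.36, adjusted p = 0.0077), a transcription factor gene, both needed for signalling by TLR7 and TLR9, were among those higher. In the same arrays 14 of 19 immediate-early genes were lower (Fos by -2.60) and 9 of 9 hepatocyte genes higher (Alb by 1.97), and all 3 WT arrays were low-Y. The part of these in the Cd14 and Tlr1 differences was not tested, and they cannot be told apart from the source of the mice.

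In a 5-group fit of cell group and array set, chosen after seeing the data, low-Y em-KCs against high-Y em-KCs gave 4 called members of 9 (24.6% of all genes), with Cd14 (-0.45, adjusted p = 0.00198), Tlr1 (-0.48, 0.0212) and Tlr3 (-0.40, 0.0307) lower and Tlr9 (0.38, 0.0250) higher. These are the same 3 WT arrays and the same 8 colony arrays, so the result is not independent of the one above.

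The knock-in allele was compared within the colony, in untreated KC-DTR em-KCs against WT littermate em-KCs. Of the littermate arrays 1 was untreated and the others came 15 or 30 days after DT. Allele and DT thus largely coincide here, and their parts cannot be told apart. No member was called (0 of 9, and 0% of all genes), and 2 of 9 had an unadjusted p under 0.05, against 3.79% of all genes. Tlr6 had 8.02, 8.04 and 8.26 in KC-DTR em-KCs and 7.45 to 7.85 in 5 littermates, and Tlr1 had 9.58, 9.80 and 9.78 in KC-DTR em-KCs and 9.13 to 9.50 in littermates. In both genes all 3 KC-DTR arrays lay above all 5 littermates, as 1.91% of all genes did. The differences were 0.42 for Tlr6 (interval 0.13 to 0.70) and 0.34 for Tlr1 (0.03 to 0.65), with an adjusted p of 1 from limma for both. All 9 differences were above 0, from 0.00 for Tlr2 and 0.01 for Cd14 to 0.42 for Tlr6. Their median was 0.10, against -0.02 over all genes. The signs are not separate results, since the members share arrays and probes common to Tlr1 and Tlr6 are possible.

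DT without its receptor was followed in littermates, with 4 DT-treated littermate em-KC arrays against 4 untreated em-KC arrays of the colony. No member was called (0 of 9, and 0% of all genes, limma), and 1 of 9, Tlr6, had an unadjusted p under 0.05, against 2.12% of all genes. Tlr6 was -0.34 (interval -0.63 to -0.04), and since 3 of the 4 untreated arrays were KC-DTR, this comparison shares arrays with the one on the knock-in. The other 8 members lay between -0.24 and 0.11.

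**Figure D5:**
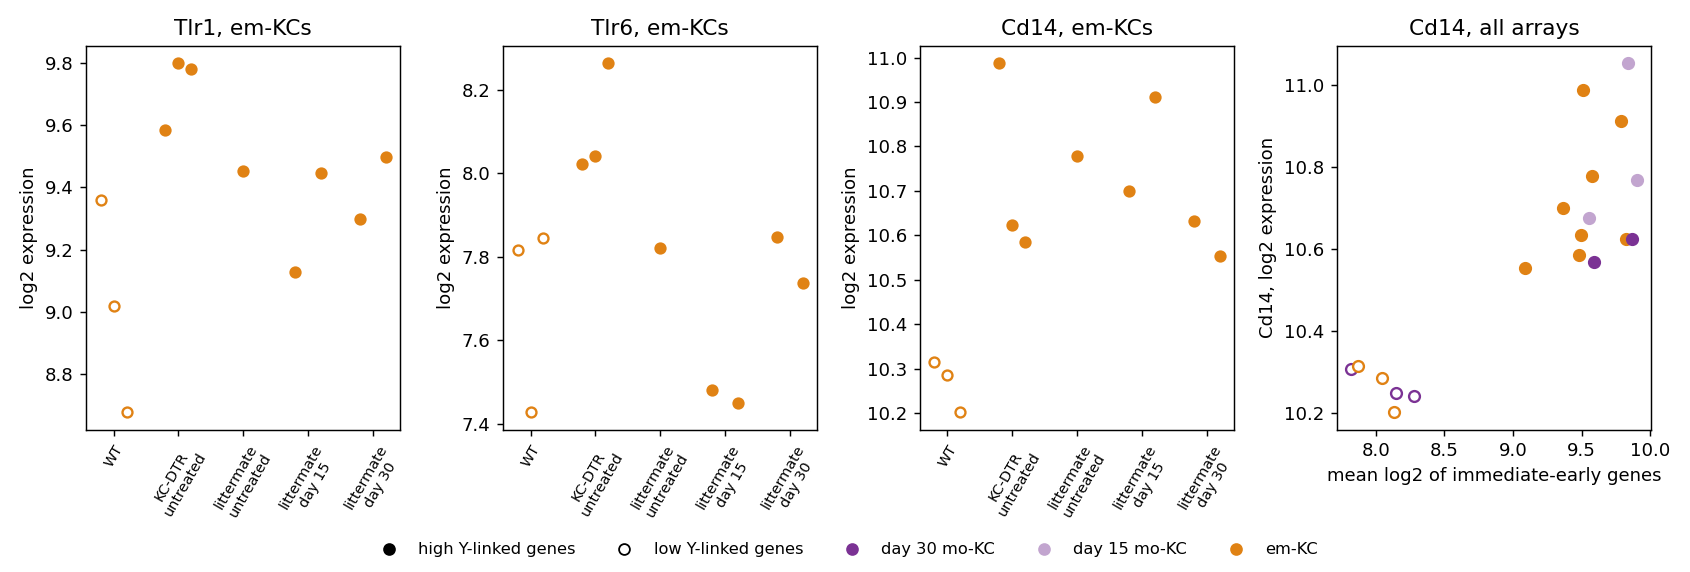
Left 3 panels, log2 expression (vertical axes) of Tlr1, Tlr6 and Cd14 in each em-KC array by condition, filled for high-Y and open for low-Y arrays. Right panel, Cd14 (vertical axis, log2) against the mean log2 of 19 immediate-early genes (horizontal axis) on all 19 arrays, where the 6 low-Y arrays lie at 7.82 to 8.28 and 10.20 to 10.31 and the 13 high-Y arrays at 9.09 to 9.90 and 10.55 to 11.05.

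For the 2 members called in WT em-KCs, the genes most alike over 19 arrays were named by Pearson r. For Cd14 they were Tnfaip3 (r = 0.88), Fos (0.87), a subunit of AP-1, and Klf4 (0.87), a zinc finger factor of monocytes. Within the 13 high-Y arrays these fell to 0.54, 0.54 and 0.52, and within the 6 low-Y arrays they were -0.31, -0.47 and 0.52, so that the pooled r rests in large part on the gap between the sets. For Tlr1 they were Gar1 (0.84), Sae1 (0.84) and Zbtb11os1 (0.84), with 0.73, 0.76 and 0.67 in the high-Y and 0.88, 0.81 and 0.89 in the low-Y arrays. Gar1 encodes a small nucleolar ribonucleoprotein subunit and Sae1 a subunit of the SUMO-activating enzyme.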

How the data were processed

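The authors ran Robust Multi-array Average (RMA) and deposited 1 log2 value per probeset and array, from Affymetrix GeneChip Mouse Gene ST arrays, with background correction, probeset summarization and quantile normalization between arrays. Values lay between 1.71 and 14.4, and for RMA the version is not given in the sources used here. Of 35556 probesets, 21789 had 1 gene symbol and were kept, 1621 had several and 12146 had none. Where a gene had several, that of highest mean stood for it. No pair among 171 pairs of arrays was identical, and 0 value columns belonged to no sample.

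Differences were fitted with limma 3.58.1 (lmFit and eBayes) in R 4.3.3, over the 3 cell groups or over the 7 conditions, with two-sided tests and Benjamini-Hochberg adjustment over 19938 genes at a threshold of 0.05. The mean of the mo-KC groups stood for both days, the mean of 4 conditions for the colony em-KCs and the mean of 3 for the littermates. The code was tested on simulated data. Precision is limited by how many arrays each group has.

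The members were chosen by name and not for their values. They, the pathway and marker lists and the alternatives were nevertheless set with earlier results of these data known. Named genes are all members, pathway genes called in the fit of 3 groups, Ly96, Unc93b1, Myd88, Tirap, Tlr11 to Tlr13, and the 3 genes with the highest r with each called member. Any further gene was picked with its values in view. Alternatives covered the variance model, array weights, normalization, a filter on dim genes, the probeset per gene, the replicate number as a block, the threshold, the methods' t-test, the array sets, the em-KC arrays used and leaving out each array. Upstream stretches came from RefSeq (GRCm38.p6).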

Additional observations from a re-analysis of the deposited data

Results flagged for a closer look

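In day 30 mo-KCs, Tlr7 replicate 2 stood at 9.98 (log2), far from the 4 others at 9.60 to 9.61, by Dixon's criterion. It was 1 of 9 member groups examined in this way, and chance flags about 1 group in 20.

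The day 30 difference of Tlr9 from em-KCs differed between the low-Y and the high-Y arrays by -0.97 (standard error 0.20, adjusted p = 0.00694, limma interaction). It was -0.56 within the low-Y arrays, where 2 of 3 day 30 arrays lay below all 3 WT em-KC arrays, and 0.41 within the high-Y arrays, where both day 30 arrays lay above all 8 em-KC arrays.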

How the results depend on the processing

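Over all alternatives 2509 of 2529 differences of single members kept their call and direction or stayed uncalled in whichever direction, 11 lost the call and 9 gained one. A change of sign was counted only where a call was involved, and there were 0 of these. Uncalled differences did change sign, as that of Tlr9 at day 30 against em-KCs (from -0.56 to 0.41 over the settings). The day 30 result against em-KCs stayed at 0 members in 16 settings and 19 fits without 1 array. For day 15 against em-KCs the count was 1 (Tlr9) with array weights (0.61, adjusted p = 0.0120), by the methods' t-test unadjusted (1) and in the high-Y arrays alone (1), for both days 1 in the high-Y arrays, for day 15 against untreated KC-DTR em-KCs 1 in the high-Y arrays (chosen after seeing the data), and for day 30 against day 15 it was 1 (Cd14, -0.43) by the methods' t-test unadjusted. For WT against colony em-KCs the 2 calls became 1 with array weights, 1 after cyclic loess (Tlr9, 0.53, adjusted p = 0.030), 0 at a threshold of 0.01, and between 1 and 3 without 1 array. Tlr1 was lost without littermate day 15 replicate 2, littermate day 30 replicate 2, WT replicate 2 or WT replicate 3, and Tlr3 was called without day 15 mo-KC replicate 2 (adjusted p = 0.0392) or WT replicate 3 (-0.56, adjusted p = 0.0316).

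The number of genes called at day 30 moved between 49 and 2365 over the settings (157 as reported), at day 15 between 66 and 1251 (100), for both days between 123 and 2309 (237), between the days from 0 to 782 (4), and for WT against colony em-KCs between 1484 and 3660 (3289), with the highest of the first 4 from the methods' t-test unadjusted. Without 1 day 30 array, day 30 gave 305 genes (replicate 1), 316 (2), 93 (3), 93 (4) or 98 (5), and without day 15 replicate 3 day 15 gave 57 and both days 157. Against untreated KC-DTR em-KCs, day 30 gave 44, 47 or 32 genes (73 as reported) without KC-DTR replicate 1, 2 or 3, and day 15 gave 48 (78) without KC-DTR replicate 3 and 49 without day 15 replicate 1.

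The replicate number as a block left 1 call in WT against colony em-KCs, Cd14, while Tlr1 was lost (-0.44, adjusted p = 0.0587), and 49 genes at day 30. Same-numbered arrays had correlations of -0.12 to 0.15, with 5 of 36 pairs over 0.1, so the numbers were not taken to pair the samples. The cause of these shifts was not tested.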
